A study of Mus musculus with 4 samples.

Results

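The genes described here are 7 regulators of cell survival, Bcl2a1a, Bcl2a1b, Bcl2a1d, Mcl1, Bcl2l1, Bcl2l11 and Birc3, taken from the 32285 genes of the count files by symbol. They were selected on their levels and folds in these same libraries, already known when the set was drawn up, so both are given as descriptions. Macrophages were sorted from the lungs of female mice and profiled by droplet single-cell RNA sequencing, with 1 library for each of 4 groups. The groups were wildtype FVB mice at 16 weeks (wildtype early), MMTV-HER2 mice at 16 weeks (HER2 early, the stage of early lesions), wildtype FVB mice at 32 weeks (wildtype late) and MMTV-HER2 mice at 32 weeks (HER2 late, when tumours could be felt). In the MMTV-HER2 line a viral promoter, active mainly in mammary epithelium, drives the HER2 oncogene. The number of mice behind a library, like the sort gate, was not given in the sources used here, and with 1 library per group no difference between groups has a replicate check.

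Cells live or die partly by the balance of BCL2-family proteins at the mitochondrion. Anti-apoptotic members (A1, encoded in the mouse by the Bcl2a1 copies, MCL1 and BCL-XL, encoded by Bcl2l1) hold the pore-forming effectors BAX and BAK in check, and BH3-only proteins such as BIM, encoded by Bcl2l11, oppose them. Birc3 encodes cIAP2, an inhibitor of apoptosis protein that acts as a ubiquitin ligase in signalling from TNF receptors to NF-kB. Bcl2a1 and Birc3 are both known NF-kB target genes, and A1 is known mainly from blood cells.

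The Bcl2a1 copies are near-identical genes, and their starts show how alike they are. In GENCODE M21 (GRCm38, the assembly also called mm10), Bcl2a1a lies at chr9:88956900-88962419 on the plus strand, Bcl2a1b at chr9:89199209-89207827 on the plus strand and Bcl2a1d at chr9:88723285-88731914 on the minus strand. The 250 bases before the start of Bcl2a1a in RefSeq (GRCm38.p6, chr9:88956670-88956919, plus strand) are shown first, because they stand for the whole group. Capitals mark GAGGAAGT, a core sequence recognised by the myeloid factor PU.1, which was searched on both strands after the promoters had been read.
Bcl2a1a, 250 bases upstream: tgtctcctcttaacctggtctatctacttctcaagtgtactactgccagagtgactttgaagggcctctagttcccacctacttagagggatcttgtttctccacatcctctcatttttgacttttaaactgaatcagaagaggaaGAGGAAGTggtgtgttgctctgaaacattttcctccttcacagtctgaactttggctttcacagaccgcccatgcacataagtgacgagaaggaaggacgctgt
The 60 bases around the same letters in each copy let the copies be compared (Bcl2a1a chr9:88956796-88956855, Bcl2a1b chr9:89199105-89199164, Bcl2a1d chr9:88731915-88731974 on the minus strand, and the further copy Bcl2a1c chr9:114329901-114329960).
Bcl2a1a: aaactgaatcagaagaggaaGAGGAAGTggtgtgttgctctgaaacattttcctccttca
Bcl2a1b: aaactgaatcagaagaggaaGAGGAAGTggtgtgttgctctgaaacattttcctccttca
Bcl2a1d: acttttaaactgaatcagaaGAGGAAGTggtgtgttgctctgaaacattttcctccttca
Bcl2a1c: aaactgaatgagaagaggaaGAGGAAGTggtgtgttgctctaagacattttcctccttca
GAGGAAGT was present in all 4 Bcl2a1 promoters and in none of the promoters of the other members. It occurs in 3.2% of 32851 mouse promoters of the same length. Since it was picked after reading these promoters, and the copies are near-identical, the 4 matches are not separate observations and no enrichment is read from them. A match is a description of letters and not a binding site. Bcl2a1a and Bcl2a1d were 96.0% identical over 300 aligned promoter positions, while Bcl2a1b was 99.2% identical to Bcl2a1a and 96.5% to Bcl2a1d over the 256 positions that could be aligned. An NF-kB consensus was found in 0 of the 4 Bcl2a1 promoters, against 8.46% of all promoters. A consensus of the transcription factor AP-1 was found in those of Bcl2a1a, Bcl2a1b and Bcl2a1d, against 7.81% of all promoters. With 300 bases searched in near-identical copies, nothing is read from either.

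The likeness of the copies also bears on how far their counts can be told apart. Of the 90-base stretches within the last 300 transcribed bases, 60.2% were unique to Bcl2a1a, 49.8% to Bcl2a1b and 10.4% to Bcl2a1d in the reference transcripts, while those of the other members were all unique (100%). The split of reads among the copies is therefore uncertain, and their sum (the Bcl2a1 sum) is given beside them. A further gene model, Gm29094, shares 401 of the 817 exonic bases of Bcl2a1b and has no row in the count files. The libraries come from FVB mice while the reference is C57BL/6J, and the effect of that on the split was not tested.

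After filtering, the libraries held 5449, 5126, 5129 and 6554 cells, in the order of the groups above, which is kept throughout. Alveolar macrophages (AM cells, by their share of Chil3, Ear1, Ear2, Fabp1, Lpl and Plet1) numbered 4245 to 5702 per library and gave 18226829 to 27573921 UMIs (unique molecular identifiers, that is counted molecules). Interstitial macrophages (IM cells, by C1qa, C1qb and C1qc) numbered 330, 455, 633 and 661 and gave 2263388 to 3865769 UMIs. Markers outside that rule went with the names: Siglecf stood at 104 to 118 CPM (each gene's UMIs relative to all UMIs counted in that class of cells) in AM cells and 4.40 to 7.07 CPM in IM cells, and Cx3cr1 at 3.84 to 11.7 CPM in AM cells and 539 to 714 CPM in IM cells. The IM cells of wildtype early stood apart, since 128 of the 330 held 3 or more UMIs of T cell genes and Cd3e reached 127 CPM, against 7.50 to 19.4 CPM in the IM cells of the other libraries. Folds of the called members in IM cells that use wildtype early are therefore given with and without such cells. Other IM values include these cells unless stated. Pairs of libraries shared 1 to 13 cell barcodes.

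Among AM cells, Bcl2a1 levels were high in both early libraries, lowest in wildtype late and in between in HER2 late. Bcl2a1a stood at 145 CPM in wildtype early (95% interval 140.0 to 150.0, counting error only) and 151 CPM in HER2 early (146 to 157), then 60.2 CPM for wildtype late (57.0 to 63.6) and 86.5 CPM for HER2 late (83.1 to 90). Bcl2a1b stood at 229.6 CPM (223 to 236), 224 CPM (217 to 231), 105 CPM (101 to 110.0) and 188 CPM (183 to 193). The early intervals of Bcl2a1b overlapped, those of Bcl2a1a did so as well, and both late libraries stood below both early ones for each copy. Bcl2a1d had few counts, 5.47, 5.32, 1.95 and 3.26 CPM, again lowest in wildtype late, although its late intervals (1.40 to 2.63 and 2.62 to 4.01) overlapped at their ends. The Bcl2a1 sum was 379.9, 380.3, 168 and 277 CPM.

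**Figure D1:**
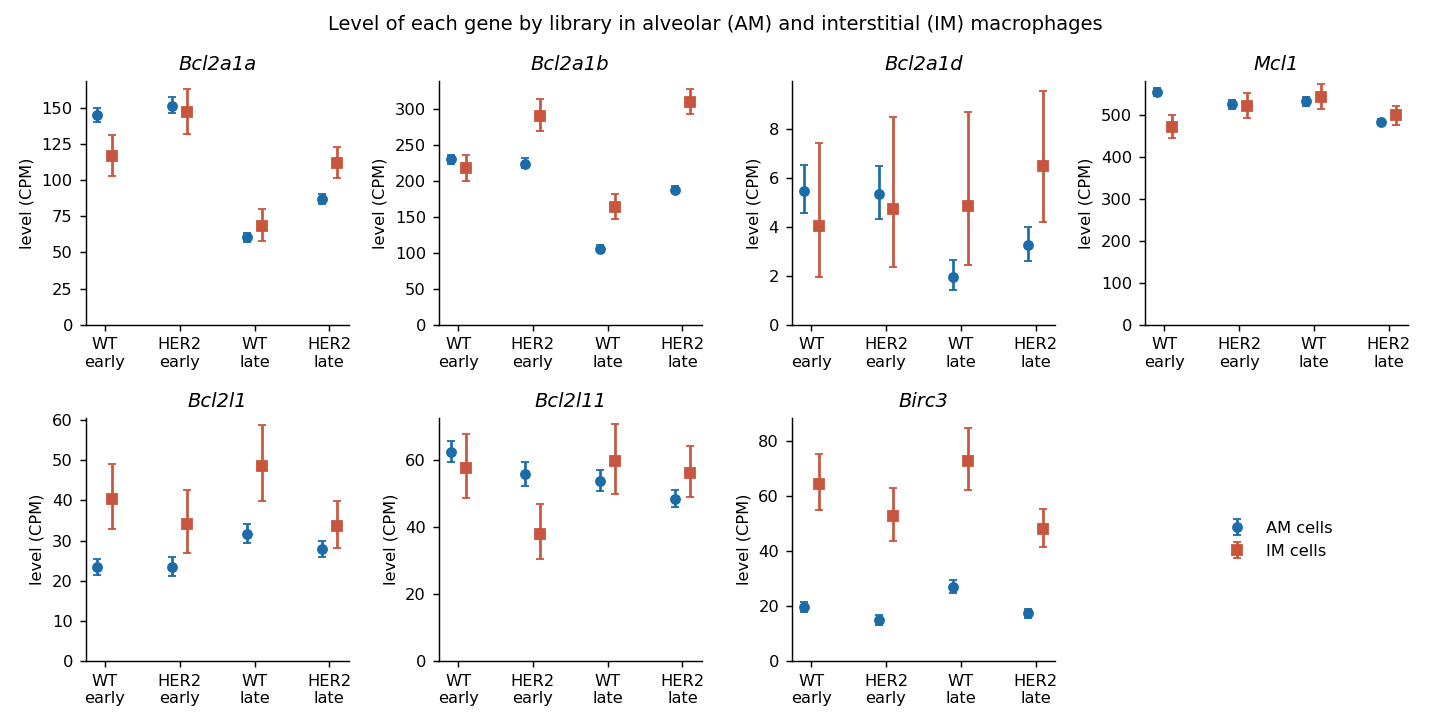
Level in CPM (vertical axes, from 0) of each of the 7 genes in AM cells (circles) and IM cells (squares) of the 4 libraries (horizontal axes), with exact 95% Poisson intervals. In AM cells Bcl2a1a and Bcl2a1b are lowest in wildtype late, at 60.2 and 105 CPM, and Birc3 is higher in IM than in AM cells of every library.

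The other members differed little, or the other way, between AM cells of the libraries. Mcl1, whose protein is short-lived, stood at 556 CPM (546 to 565), 526 CPM (515 to 537), 533 CPM (523 to 543) and 484 CPM (476 to 492), a span smaller than that of the Bcl2a1 copies. Bcl2l1 stood at 23.4 CPM (21.5 to 25.5), 23.4 CPM (21.3 to 25.8), 31.6 CPM (29.3 to 34.0) and 27.9 CPM (26 to 30), so both late libraries were above both early ones, with intervals that did not overlap. Bcl2l11 stood at 62.5 CPM (59.3 to 65.8), 55.7 CPM (52.4 to 59.3), 53.8 CPM (50.8 to 57.0) and 48.5 CPM (45.9 to 51.2), with HER2 late lowest. Birc3 stood at 19.8 CPM (18.0 to 21.7), 15.1 CPM (13.4 to 17), 27.1 CPM (24.9 to 29.4) and 17.4 CPM (15.9 to 19), so it was lower in the HER2 than in the wildtype library at each age.

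In IM cells Bcl2a1a and Bcl2a1b were again lowest in wildtype late, but with all IM cells counted HER2 late was near or above wildtype early. Bcl2a1a stood at 117 CPM (103 to 131), 147 CPM (132 to 163), 68.5 CPM (58.1 to 80.2) and 112 CPM (101 to 123). Bcl2a1b stood at 217 CPM (199 to 236), 290.4 CPM (269 to 313), 163 CPM (147 to 181) and 309 CPM (292 to 327), and its interval in HER2 late overlapped that of HER2 early only. Without IM cells holding T cell UMIs, the wildtype early levels were 141 CPM for Bcl2a1a (122 to 163) and 268 CPM for Bcl2a1b (241 to 296), and both intervals then overlapped those of HER2 early (138 to 171 and 274 to 320.0). HER2 late then stood below wildtype early for Bcl2a1a, at 113 CPM (102 to 124), and above it for Bcl2a1b, at 311 CPM (294 to 330). These intervals overlapped those of wildtype early at their ends. Mcl1 stood at 472, 522, 544 and 499.5 CPM and Bcl2l11 at 57.7, 38.0, 59.7 and 56.1 CPM, with HER2 early lowest for Bcl2l11. Without cells holding T cell UMIs, Bcl2l11 stood at 45.2 CPM in wildtype early (34.7 to 57.8) and 38.0 CPM in HER2 early (30.2 to 47.2), with overlapping intervals. Bcl2l1 stood at 40.3, 34.1, 48.6 and 33.6 CPM and Birc3 at 64.5, 52.6, 72.9 and 48.1 CPM, the highest value in wildtype late for both. Bcl2a1d stood at 4.03 to 6.47 CPM with intervals that all overlapped.

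At 16 weeks AM cells of HER2 and wildtype mice carried nearly the same levels of these genes. Of the 6 members with at least 10 CPM in either library, 1 was apart by a ratio of at least 5 to 4 (the size called here), beside 2.48% of 7189 genes. It was Birc3, 1.31-fold lower in HER2 (log2 fold -0.39, 95% interval -0.61 to -0.17), a value that went to 0.03 when every cell was thinned to 2000 UMIs. The log2 folds of Bcl2a1a and Bcl2a1b were 0.06 (-0.01 to 0.14) and -0.04 (-0.10 to 0.02), and that of the Bcl2a1 sum was 0.00 (-0.04 to 0.05). Mcl1 (-0.08), Bcl2l1 (0.00) and Bcl2l11 (-0.17) lay within the called size.

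At 32 weeks Bcl2a1a and Bcl2a1b were higher, and Birc3 lower, in AM cells of HER2 mice than of wildtype mice. Bcl2a1a was 1.44-fold higher (log2 0.52, 0.42 to 0.62), Bcl2a1b 1.78-fold higher (0.83, 0.76 to 0.90) and the Bcl2a1 sum 1.65-fold higher (0.73, 0.67 to 0.78). Birc3 was 1.56-fold lower (-0.64, -0.81 to -0.46). These were 3 of the 6 callable members, beside 34.2% of 7439 genes. By direction, 2 members were higher, beside 4.87% of genes, and 1 was lower, beside 29.3%. The median log2 fold of all genes was -0.21, and relative to it Bcl2a1a stood at 0.73, Bcl2a1b at 1.04 and Birc3 at -0.43. Mcl1 stood at -0.14 as measured and 0.07 relative to that median, so its sign rests on the scaling. Both Bcl2a1 copies and Birc3 kept their direction and the called size under each of the 15 alternatives run, with log2 folds of 0.44 to 0.72, 0.71 to 1.03 and -0.75 to -0.44. Less the median of genes of like transcript length they stood at 0.68, 0.99 and -0.49.

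**Figure D2:**
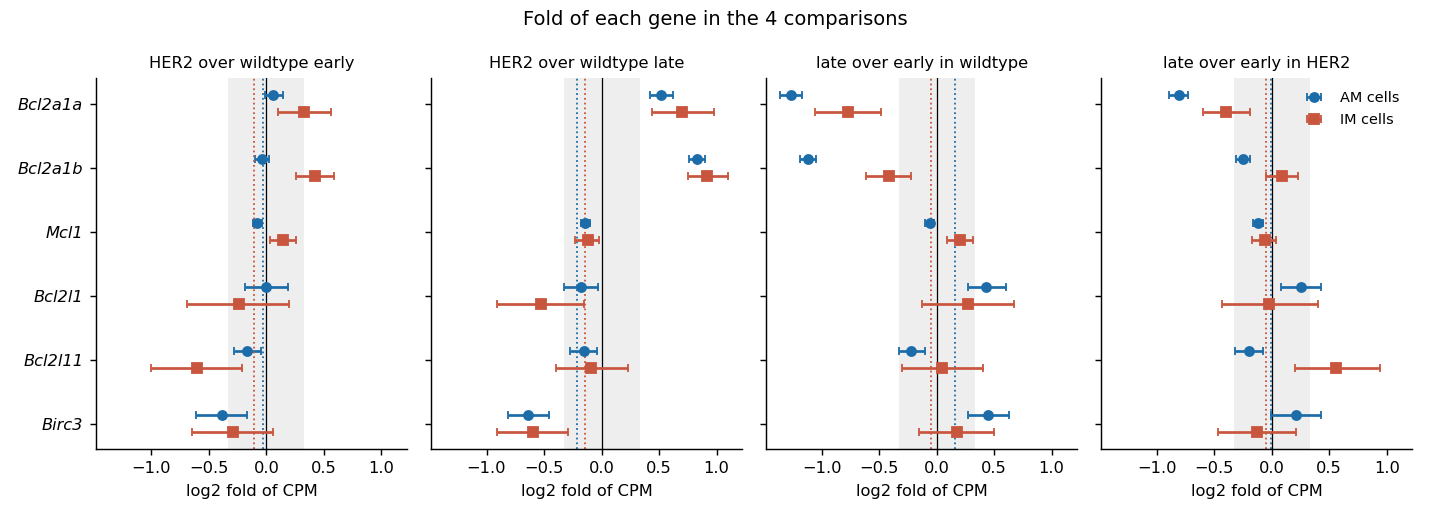
Log2 fold of CPM (horizontal axes) of 6 genes (Bcl2a1d, under 10 CPM, is left out) in the 4 comparisons, in AM cells (circles) and IM cells (squares), with exact 95% intervals for counting error. The grey band is a ratio under 5 to 4 and the dotted lines are the medians of all genes. At the late stage both Bcl2a1 copies lie right of the band in both classes and Birc3 lies left of it.

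The authors' deposited table of average AM signal gave the same directions for these genes at the late stage, with 28.6% of 7303 genes past the called size in it, 3.49% higher and 25.1% lower. In the authors' deposited table Bcl2a1a averaged 0.737 in HER2 and 0.538 in wildtype at 32 weeks, with a log2 ratio of 0.45. In the authors' deposited table Bcl2a1b averaged 1.57 and 0.947, a log2 ratio of 0.73, and Birc3 averaged 0.165 and 0.255, a log2 ratio of -0.63. At 16 weeks the authors' deposited table gave log2 ratios of 0.07, 0.02 and -0.43 for the same genes. These averages come from the same libraries, so they are another processing of the same cells.

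IM cells at 32 weeks showed the Bcl2a1 copies higher in HER2 as well. Bcl2a1a was 1.63-fold higher (log2 0.70, 0.44 to 0.98) and Bcl2a1b 1.90-fold higher (0.92, 0.75 to 1.10), while Bcl2l1 was 1.45-fold lower (-0.53, -0.91 to -0.15) and Birc3 1.52-fold lower (-0.60, -0.91 to -0.29). These 4 of 6 callable members stand beside 41.1% of 8346 genes, with 2 higher beside 10.9% and 2 lower beside 30.3%. The median log2 fold of all genes was -0.14 in these cells.

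At 16 weeks the IM comparison gave different values with and without the cells holding T cell UMIs. As measured, Bcl2a1a was 1.26-fold higher (log2 0.33, 0.10 to 0.56), Bcl2a1b 1.34-fold higher (0.42, 0.26 to 0.59) and Bcl2l11 1.52-fold lower (-0.60, -1.0 to -0.21) in HER2, 3 members beside 42.4% of 8616 genes. Without cells holding 3 or more T cell UMIs, 202 IM cells were left in wildtype early. The values were then 0.12, 0.15 and -0.25, all within the called size, and 1 member was called, Birc3 at -0.38. No share of all genes is given for that setting, so nothing is read from the count of 1. Whether the T cell UMIs in these barcodes came from doublets was not tested.

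The Bcl2a1 copies were lower at 32 than at 16 weeks in AM cells of wildtype mice, and by smaller folds in those of HER2 mice, a difference that was not tested. In wildtype AM cells Bcl2a1a was 2.41-fold lower late than early (log2 -1.27, -1.36 to -1.17) and Bcl2a1b 2.18-fold lower (-1.12, -1.19 to -1.05), while Bcl2l1 was 1.35-fold higher (0.43, 0.27 to 0.60) and Birc3 1.37-fold higher (0.45, 0.27 to 0.63). These were 4 of 6 callable members, beside 35.2% of 7489 genes, with 2 lower beside 7.96% and 2 higher beside 27.3%. The median log2 fold of all genes was 0.16, and relative to it Bcl2l1 (0.27) and Birc3 (0.29) lay within the called size while Bcl2a1a (-1.43) and Bcl2a1b (-1.28) lay further out. In HER2 AM cells Bcl2a1a was 1.75-fold lower late than early (-0.81, -0.89 to -0.73), the 1 of 6 callable members called, beside 4.26% of 7177 genes. Bcl2a1b stood at -0.25 (-0.31 to -0.19) there, within the called size. The comparisons share libraries, so a low value in wildtype late enters both the late comparison of genotypes and the comparison of ages in wildtype.

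The same ages compared in IM cells gave smaller folds for the Bcl2a1 copies. In wildtype, Bcl2a1a was 1.70-fold lower late than early (log2 -0.77, -1.06 to -0.48) and Bcl2a1b 1.33-fold lower (-0.41, -0.61 to -0.22), 2 of 6 callable members beside 52.6% of 8797 genes (29.5% lower and 23.1% higher). Without cells holding T cell UMIs these stood at -0.98 and -0.66, and 4 members were called in place of 2, with Bcl2l1 at 0.67 and Bcl2l11 at 0.40. No share of all genes is given for that setting, so nothing is read from the count of 4. In HER2, Bcl2a1a was 1.32-fold lower (-0.40, -0.60 to -0.19) and Bcl2l11 1.48-fold higher (0.56, 0.20 to 0.94), 2 of 6 callable members beside 27.4% of 8152 genes. Bcl2a1b stood at 0.09 (-0.05 to 0.23) in that comparison.

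Bcl2a1a and Bcl2a1b, whose reference transcripts are 819 and 817 bases long, did not keep a constant ratio. In AM cells there were 1.58 Bcl2a1b UMIs for each Bcl2a1a UMI in wildtype early (95% interval 1.52 to 1.66), 1.48 in HER2 early (1.41 to 1.55), then 1.75 for wildtype late (1.64 to 1.88) and 2.17 for HER2 late (2.07 to 2.28). The late libraries were above the early ones, and HER2 late was above wildtype late. In IM cells the ratio was 1.86 (1.61 to 2.16), 1.98 (1.73 to 2.26), 2.38 (1.97 to 2.89) and 2.77 (2.48 to 3.11), higher than in AM cells of the same library each time. The 62 cells with most dendritic cell markers went the other way, with 118 Bcl2a1a and 69 Bcl2a1b UMIs over the 4 libraries, a ratio of 0.585 (0.428 to 0.794). By library their ratio was 0.739, 0.448, 1.14 and 0.667, with an interval that left out 1 in HER2 early alone (0.281 to 0.698). Reads shared between copies enter these ratios, and their part was not tested.

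**Figure D3:**
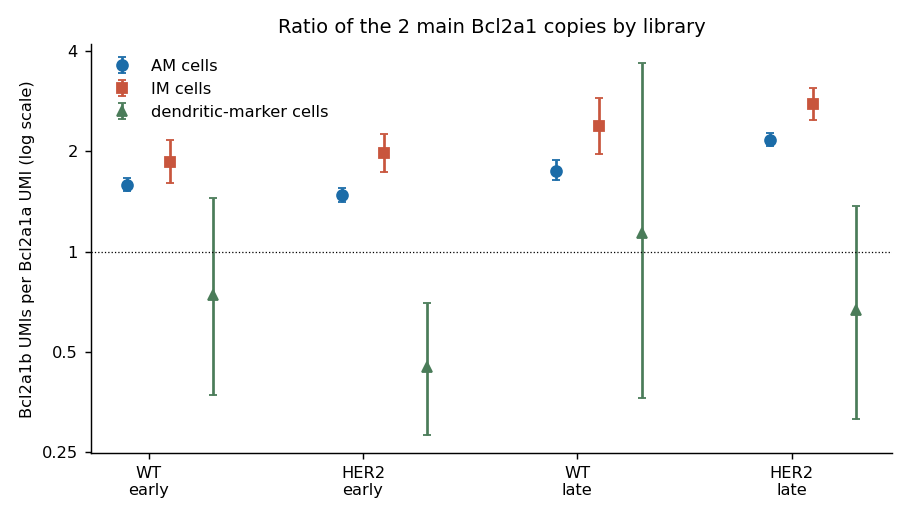
Bcl2a1b UMIs per Bcl2a1a UMI (vertical axis, log scale) in AM cells (circles), IM cells (squares) and cells with most dendritic cell markers (triangles) of each library (horizontal axis), with exact 95% intervals. AM cells run from 1.48 to 2.17 and IM cells from 1.86 to 2.77, while the dendritic-marker cells lie below AM cells in each library.

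AM and IM cells could be compared over all 4 libraries, since each library holds both. With edgeR's quasi-likelihood fit, library as a block and Benjamini-Hochberg adjustment over 11897 genes, 7467 genes (62.8%) differed at an adjusted p under 0.05, 30.8% higher and 32.0% lower in AM cells. Since the members were selected on levels in these libraries, their values in this fit are given with no test. Birc3 stood at 19.8 ± 5.19 CPM in AM cells (SD, n = 4 libraries) and 59.5 ± 11.3 CPM in IM cells, lower in AM cells of each of the 4 libraries, with a fitted log2 difference of -1.35 ± 0.09 (SE). Bcl2l1 stood at 26.6 ± 3.95 and 39.2 ± 7.0 CPM, lower in AM cells of each library (-0.30 ± 0.10). Over 10 alternatives its difference ran from -0.4 to -0.15, where that of Birc3 ran from -1.38 to -1.2. In wildtype early the Bcl2l1 interval of IM cells without T cell UMIs (21.7 to 40.7 CPM) overlapped that of AM cells (21.5 to 25.5 CPM). Mcl1 had a fitted difference of 0.29 ± 0.09, although its CPM, 525 ± 30.0 in AM and 510 ± 30.6 in IM cells, was higher in AM cells of 2 of 4 libraries, so its direction rests on the scaling.

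With all IM cells counted, the other members had no common direction between the classes. Bcl2a1a (0.20 ± 0.13) and Bcl2l11 (0.30 ± 0.13) were higher in AM cells of 2 of 4 libraries, and Bcl2a1b (-0.17 ± 0.14) in 1 of 4. Without wildtype early, whose IM cells held the T cell UMIs, Bcl2a1b stood at -0.35 ± 0.09. With only the IM cells holding T cell UMIs left out, Bcl2a1b stood at 268, 296, 170 and 311 CPM in IM cells. In AM cells it stood at 229.6, 224, 105 and 188 CPM, lower in each library. Bcl2a1d stood at 4.0 ± 1.7 and 5.03 ± 1.03 CPM in AM and IM cells.

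Cells outside both classes were few, and their levels of the survival genes are given summed over 4 libraries. The 289 cells with most endothelial markers held almost no Bcl2a1, with 19 UMIs and a Bcl2a1 sum of 9.05 CPM (5.45 to 14.1), against 168 to 380.3 CPM in AM cells. The same endothelial-marker cells had the highest Bcl2l1 level of the marker groups with 50 or more cells, 91.0 CPM (78.6 to 105), and Mcl1 at 358 CPM (333 to 385). The 62 dendritic-marker cells held 339 CPM of the Bcl2a1 sum (293 to 390.0), and by library 293, 592, 134 and 254 CPM. The 53 monocyte-marker cells held 304 CPM (241 to 379), and by library 441, 344, 73.1 and 360 CPM, so wildtype late was lowest in both groups. The 52 epithelial-marker cells held 228 CPM (191 to 270.0), and by library 360, 287, 23.3 and 309 CPM. Between these and the endothelial-marker cells lay the 246 T cell-marker cells at 92.4 CPM (74.1 to 114), the 90 B cell-marker cells at 91.7 CPM (57.5 to 139) and the 35 fibroblast-marker cells at 90.7 CPM (56.9 to 137). How much free RNA or doublets add to the Bcl2a1 UMIs of these groups was not tested. The epithelial marker list included Krt18 and Epcam, which were also seen in AM cells. Whether macrophages stood among the epithelial-marker cells was not tested. B cell-marker cells held 113 CPM of Birc3 (74.2 to 164). Mcl1 in monocyte-marker cells stood at 704 CPM (606 to 814), with 579, 526, 834 and 836 CPM by library, where dendritic-marker cells had 447, 603, 621 and 529 CPM. With 34 NK-marker cells and 102933 UMIs, 0 Bcl2a1 UMIs were counted, where 3 counts would be 29.1 CPM and the exact 95% interval reaches 35.8 CPM.

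**Figure D4:**
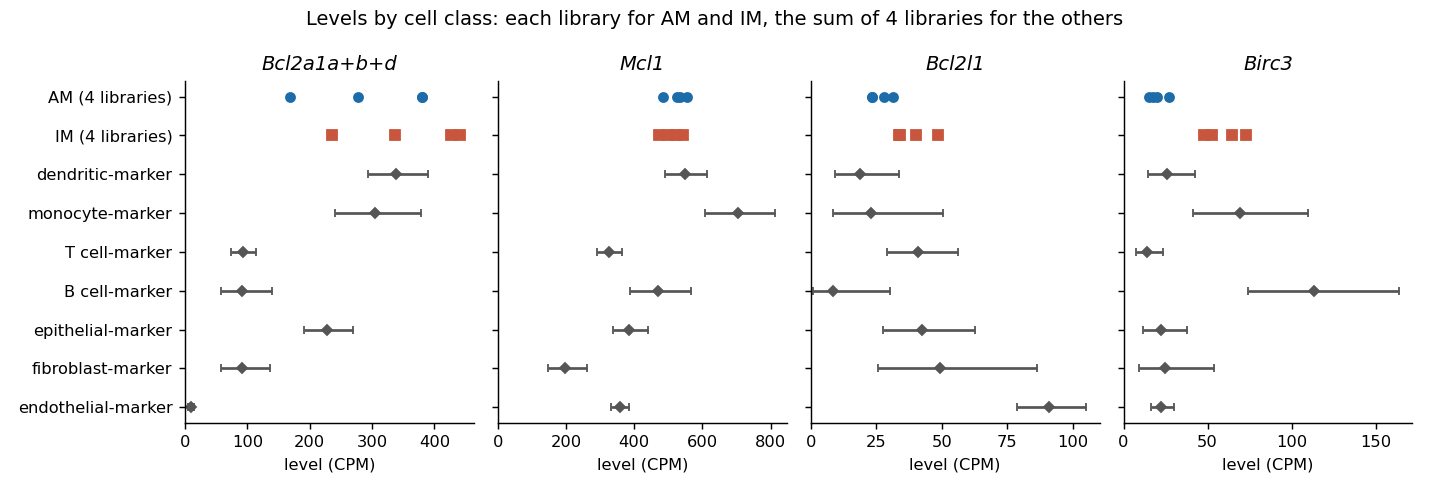
Level in CPM (horizontal axes, from 0) of the Bcl2a1 sum, Mcl1, Bcl2l1 and Birc3 by cell class (vertical axis). Circles and squares are the 4 libraries of AM and IM cells, and diamonds are cells of other markers summed over 4 libraries, with exact 95% Poisson intervals. Endothelial-marker cells are near 0 for the Bcl2a1 sum (9.05 CPM) and furthest right for Bcl2l1 (91.0 CPM).

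Seen cell by cell, Bcl2a1 differed between libraries in how many cells held a UMI. With each AM cell thinned to 2000 UMIs, which left out 357, 490, 171 and 340 shallower cells, 47.2% of cells held at least 1 Bcl2a1 UMI in wildtype early (exact 95% interval 45.8 to 48.7), 47.1% in HER2 early (45.5 to 48.7), then 25.9% for wildtype late (24.5 to 27.2) and 37.3% for HER2 late (36.0 to 38.6). Before thinning the shares were 68.3, 64.4, 49.1 and 58.9%, at median depths of 3728 to 4752 UMIs. The share with 3 or more UMIs was 5.23, 5.28, 0.859 and 2.50%. As the background of free RNA, 0 to 2.04% of thinned endothelial-marker cells held a Bcl2a1 UMI, at median depths of 4008 to 6829 UMIs. Mcl1 was found in 64.5, 60.8, 63.2 and 57.9% of AM cells and in 43.5 to 53.5% of endothelial-marker cells.

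Bcl2a1a and Bcl2a1b were found together in AM cells somewhat more often than their separate shares give. Of thinned AM cells, 9.70, 8.95, 2.63 and 4.83% held both, 1.26, 1.18, 1.41 and 1.22 times the product of the separate shares. The corresponding ratio for Bcl2a1a with Mcl1 was 0.996 to 1.00. With Bcl2l1 it was 1.20, 1.10, 0.966 and 0.957, with Bcl2l11 1.04, 1.10, 0.796 and 0.904, and with Birc3 0.868, 0.974, 1.27 and 0.825. With Bcl2a1d it was 1.60, 1.90, 0.731 and 0.314, from 17, 15, 1 and 1 cells with both. Reads shared between copies enter the ratios of the copies, and their part was not tested. Across single AM cells the correlations with 2365 genes were weak, and 1 pair reached the set minimum of 0.1 in each library, Bcl2a1b with Fth1, the ferritin heavy chain (Pearson r of 0.141 to 0.213 over 3923 to 5362 cells that share a library).

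Within AM cells the Bcl2a1 copies were higher in cells with inflammatory transcripts. These were cells with 3 or more UMIs of Cxcl2, Ccl3, Ccl4, Tnf, Il1b, Il1a, Osm and Cxcl1 after thinning, 65, 57, 72 and 101 cells in the 4 libraries. Relative to AM cells with 0 such UMIs, the Bcl2a1 sum was 1.62-, 1.65-, 1.69- and 1.75-fold higher, and the mean log2 ratio was 0.74 ± 0.05 (SD, n = 4 libraries). Bcl2a1b was higher in each library (0.83 ± 0.08), as were Bcl2a1a (0.59 ± 0.14), Birc3 (0.81 ± 0.44) and Mcl1 (0.29 ± 0.18). In HER2 early the intervals of Bcl2a1a (-0.02 to 0.75), Mcl1 (-0.16 to 0.29) and Birc3 (-1.44 to 1.44) included 0. Birc3 had 5 UMIs in the inflammatory cells of that library. Bcl2l11 (0.51 ± 0.42) was higher in 3 of 4 libraries and Bcl2l1 (0.00 ± 0.49) had no common direction. With 4 libraries, an exact two-sided sign-flip permutation test cannot give less than p = 0.125, the value of each gene with 1 direction in all 4. Inflammatory cells had median depths of 4730 to 5774 UMIs against 3949.5 to 4794 in cells with 0.

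In AM cells with no inflammatory UMI after thinning, a subset chosen after seeing the data, the late log2 fold of the Bcl2a1 sum, HER2 over wildtype, was 0.73, and in all AM cells it was 0.73. The inflammatory share of thinned AM cells was 1.45, 1.45, 1.77 and 1.88%. With so few such cells the fold could move little, and their part in the late difference was not tested.

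AM cells in the cell cycle went the other way. In cells with 3 or more UMIs of cell cycle genes such as Top2a and Mki67 the Bcl2a1 sum was 0.944, 0.784, 0.718 and 0.833 of the level in cells with 0. The mean log2 ratio was -0.29 ± 0.17 for the Bcl2a1 sum (SD, n = 4 libraries) and -0.30 ± 0.09 for Mcl1, both lower in each of the 4 libraries. The interval of the Bcl2a1 sum included 0 in wildtype early (-0.21 to 0.04). Bcl2a1a (-0.23 ± 0.16), Bcl2a1b (-0.34 ± 0.16), Bcl2l1 (-0.40 ± 0.45) and Birc3 (-0.69 ± 0.64) were also lower in each library, while Bcl2l11 stood at 0.09 ± 0.10. Cycling cells had median depths of 5437 to 6532 UMIs against 3933 to 4791 in cells with 0. No ratio over all genes is given for these cells, and the part of depth was not tested. In AM cells with 3 or more UMIs of MHC class II genes, the Bcl2a1 sum (0.06 ± 0.07) and Mcl1 (0.04 ± 0.03) were close to cells with 0, and Birc3 was higher in each library (0.25 ± 0.15). The Birc3 interval left out 0 in HER2 late alone (0.04 to 0.68).

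**Figure D5:**
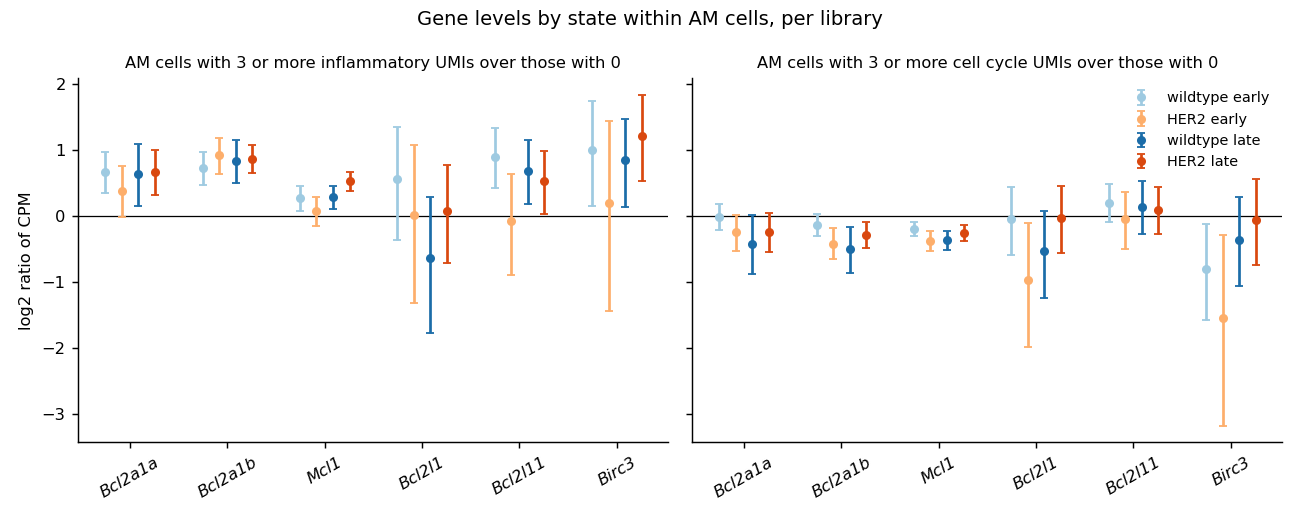
Log2 ratio of CPM (vertical axis) of 6 genes (horizontal axes) in AM cells with 3 or more inflammatory UMIs (left) or cell cycle UMIs (right) over AM cells with 0, for each library, with exact 95% intervals. Bcl2a1b lies above 0 in inflammatory cells of the 4 libraries, at mean 0.83, and Mcl1 lies below 0 in cycling cells of the 4 libraries, at mean -0.30.

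Around the members, 73 other genes of the apoptosis and survival pathways were taken in 8 lists. In AM cells at 16 weeks, 1 of 54 genes with at least 10 CPM was higher in HER2, beside 0.709% of all genes, and 3 were lower, beside 1.77%. Nfkbia, the NF-kB inhibitor that NF-kB itself induces, was 1.45-fold lower (111 against 161 CPM), Ier3, an immediate early NF-kB target, 1.28-fold lower, and Birc5, encoding survivin and made in dividing cells, 1.57-fold lower. Il3ra, the interleukin 3 receptor alpha chain, was 1.49-fold higher. The lists' medians lay between -0.07 and 0.03, beside -0.03 for all genes.

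At 32 weeks 3 of 54 listed genes were higher in HER2 AM cells, beside 4.87% of all genes, and 8 were lower, beside 29.3%, where the median of all genes was -0.21. The 11 listed genes called became 21 with a mitochondrial limit of 5%, for which no share of all genes is given. The 3 were Bax, the pore-forming effector (119 against 93.7 CPM, 1.27-fold), Cycs, encoding cytochrome c (68.0 against 50.4 CPM, 1.35-fold), and Gadd45b, a stress-induced NF-kB target (1.54-fold). The 8 included both MCL1 turnover genes past the called size, the ubiquitin ligase Huwe1 (75.3 against 119 CPM, 1.58-fold) and the deubiquitinase Usp9x (1.31-fold), and the NF-kB inhibitor Tnfaip3 (1.44-fold). Birc6 and Naip6 of the inhibitors of apoptosis (1.41- and 1.40-fold), the caspases Casp4 and Casp6 (1.40- and 1.35-fold) and the mitochondrial BH3-only gene Bnip3 (1.46-fold) made up the rest.

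Between ages in wildtype AM cells 10 of 53 listed genes were higher late, beside 27.3% of all genes, and 6 were lower, beside 7.96%, with a median of 0.16 over all genes. Bax and Cycs were lower late (1.31- and 1.43-fold), as were Nfkbia (1.32-fold), Ier3 (1.31-fold), Birc5 (1.49-fold) and the BH3-only gene Bad (1.36-fold). Il3ra (1.80-fold), Huwe1 (1.51-fold) and Bnip3 (1.45-fold) were the widest of those higher. None of the anti-apoptotic genes of the first list (Bcl2, Bcl2l2, Bcl2l10, Bcl2a1c) reached 10 CPM in AM cells, and Bcl2 stood at 0.658 to 1.56 CPM there against 32.8 to 75.8 CPM in IM cells. The 75.8 CPM was that of wildtype early, with its IM cells holding T cell UMIs included.

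In IM cells, with fewer UMIs behind each value, 26 of 60 listed genes passed the called size at 16 weeks, beside 42.4% of all genes, and 22 of 63 at 32 weeks, beside 41.1%. Between ages 35 of 62 passed in wildtype, beside 52.6%, and 22 of 63 in HER2, beside 27.4%. Most of these shares were near those of all genes, and nothing is read from them. The counts that use wildtype early include its IM cells holding T cell UMIs. As examples, the widest gene of each list with an interval leaving out 1 is given at 32 weeks, where no T cell-rich library enters. Bax (1.43-fold) and Birc5 (2.0-fold, 82 against 24 UMIs) were higher in HER2. Lower in HER2 were Bcl2 (1.57-fold), Bmf (1.47-fold), Usp9x (1.55-fold), Relb (1.64-fold) and Casp4 (1.99-fold, 55 against 64 UMIs). Stat5b, a mediator of cytokine survival signals, was also lower (1.91-fold). Of 15 listed NF-kB genes tested between classes, 9 were lower in AM than in IM cells by edgeR, beside 32.0% of all genes, and 1 was higher, beside 30.8%, with a median log2 of -0.69 beside -0.01 over all genes, and they included Traf1 (-5.93 ± 0.24), Nfkbie (-2.34 ± 0.13) and Bcl3 (-2.22 ± 0.20). Of 11 survival receptor and signal genes 6 were higher in AM cells, beside the same 30.8%, among them Csf2rb (1.12 ± 0.10), the signalling chain of the GM-CSF receptor, and Cish (2.33 ± 0.15), and 2 were lower, Csf1r (-3.27 ± 0.10) and Csf2ra (-0.49 ± 0.12).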

How the data were processed

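The count files deposited by the authors hold whole UMI counts for each gene in every barcode, unfiltered. The submitters' processing notes name Cell Ranger 5.0.1 and the mm10 build; the software version is Cell Ranger 4 per the file headers. The authors also deposited average signal over AM cells per stage, each column summing to 10000 over 15906 genes; the choice of those cells was not given in the sources used here. Groups were taken from the sample titles, since the strain label gives both genotypes for every sample.

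Barcodes with at least 1000 UMIs, 500 genes and at most 10% mitochondrial UMIs were kept as cells (total counts 28786682 to 39228655 UMIs per library). AM cells had at least 0.4% of UMIs in their 6 genes, above the C1q sum, and IM cells at least 5 C1q UMIs, above the AM sum. Cells of neither class were named by the marker list with most UMIs, at least 3. Doublets were not removed. Counts were summed per class and library and scaled to CPM, with exact Poisson intervals; folds carry exact conditional binomial and shares Clopper-Pearson 95% intervals, all for counting error only. A fold was called at 1.25 or more with at least 10 CPM in either library. AM and IM sums were tested with edgeR 4.0.16 (TMM, filterByExpr, quasi-likelihood), with DESeq2 1.42.0 as an alternative. Calculations were tested on simulated data. Promoters came from RefSeq tables and positions from GENCODE M21.

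The members, lists and tests were chosen with earlier results of these data known. Listed genes were named when 1.25-fold apart with an interval leaving out 1, at most 4 per list and comparison, widest first; genes of like pattern needed r of at least 0.1 in each library. Examples from the AM against IM test were chosen after their values were seen.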

Additional observations from a re-analysis of the deposited data

Results flagged for a closer look

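For a few members an interval above 0 in one comparison stood against an interval below 0 in another, and none of these differences was tested. Mcl1 in IM cells stood at 0.14 (log2, HER2 over wildtype) at 16 weeks and -0.12 at 32 weeks. Relative to the median of all genes the 32-week value was 0.02, so its sign rests on the scaling. In AM cells at 16 weeks Mcl1 stood at -0.08, against that 0.14 in IM cells. Between ages in wildtype, late over early, Mcl1 stood at -0.06 in AM and 0.20 in IM cells. All of these Mcl1 values lay within the called size. Between ages in HER2, Bcl2l11 stood at -0.20 in AM cells and 0.56 in IM cells, where it was called.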

How the results depend on the processing

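Of 912 member folds recomputed under alternatives, 854 moved by less than the counting interval, 57 moved further with no called value changing sign, and 1 reversed: Birc3 in AM cells, HER2 over wildtype early, at 0.03 with cells thinned to 2000 UMIs. Bcl2a1d in AM against IM cells changed sign without wildtype late (0.06) and without HER2 late (0.09), with values from -0.46 (without wildtype early) to 0.09 over the libraries left out.

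Counts of members called moved as follows. No share of all genes is given for the alternatives, so nothing is read from these counts. In AM cells at 16 weeks the count was 0 with thinning, with a 50 CPM minimum and with a 1.5-fold size, against 1. Between ages in wildtype AM cells it was 2 with 50 CPM and 2 with 1.5-fold, against 4. Between ages in HER2 AM cells it was 2, against 1, with a mitochondrial limit of 5%, with thinning and with a 1 CPM minimum. In IM cells a 1.5-fold size gave 1 at 16 weeks (against 3), 1 between ages in wildtype (against 2) and 0 between ages in HER2 (against 2). There, subtracting free RNA and thinning each gave 1. Leaving out cells with T cell UMIs gave 1 at 16 weeks and 4 between ages in wildtype. That alternative, the correction for transcript length and the one without inflammatory UMIs were chosen after seeing the data.

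Counts of listed genes called moved under the 50 CPM minimum and the 1.5-fold size, among other alternatives. These too have no share of all genes beside them, and nothing is read from them. In AM cells they were 1 and 1 at 16 weeks (against 4), 5 and 2 at 32 weeks (against 11), 7 and 2 between ages in wildtype (against 16), and 0 and 0 between ages in HER2 (against 1). In IM cells they were 11 and 11 (against 26), 6 and 8 (against 22), 17 and 17 (against 35), and 3 and 8 (against 22), in the same order. In AM cells at 32 weeks a mitochondrial limit of 5% gave 21 and a 1 CPM minimum 18. Between ages in HER2 AM cells the count was 2 with a 20% mitochondrial limit, 3 with totals free of mitochondrial, ribosomal protein and Gm42418 UMIs, 4 with free RNA subtracted, 2 with every cell weighing the same, 6 with thinning, 2 with stricter class limits, 7 with a 1 CPM minimum and 3 without inflammatory UMIs. The causes were not tested.

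The AM against IM test called 7467 genes, 6517 to 7660 with a library left out, 7176 with no replicate block, 6721 with DESeq2 and 9068 with no filter. Free RNA, set from Sftpc, Sftpa1 and Scgb1a1 (chosen after Krt18 and Epcam were seen in AM cells), made up at most 2.80 to 7.96% of AM and 3.25 to 16.1% of IM UMIs. Bcl2a1d stood under 10 CPM, with 10.4% of its 90-base stretches unique, and why it was low was not tested. IM cells, with fewer UMIs, had wider intervals than AM cells.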
